A study of Homo sapiens with 16 samples.

Results

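The transcripts described here are 10 genes through which a cell damps or reads out the ERK branch of MAP kinase signalling: the dual-specificity phosphatases DUSP4, DUSP5 and DUSP6, the Sprouty and SPRED inhibitors SPRY2, SPRY4, SPRED1 and SPRED2, the ETS transcription factors ETV4 and ETV5, and PHLDA1. They were picked by name from the pathway, with the itraconazole responses of these same libraries already known, and matched by symbol to 10 of the 54127 Ensembl gene identifiers that the count files list. All contrasts of these libraries are therefore given as descriptions. Whether a value passed the threshold used for all genes is marked, and it is not read as a test of the members. All 10 were counted in each of the 16 libraries.

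HT55 and SW948 are established human colorectal cancer cell lines. Each was grown as an adherent 2D culture and given itraconazole, a triazole antifungal, at 5 µM, or the solvent DMSO alone, and RNA was taken on day 6. Both lines under both conditions make 4 groups of 4 libraries, named by line and agent (HT55 DMSO, for example). No group carried an introduced allele or a second agent, and all cells were cultured with serum and 5% oxygen. Each line is a single line, so a difference between HT55 and SW948 is one between these lines and not between kinds of tumour.

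ERK is switched on by the relay from receptor tyrosine kinases through RAS, RAF and MEK. Active ERK raises transcription of its own inhibitors, so these transcripts are widely used as a readout of the pathway. DUSP6 and the inducible nuclear enzymes DUSP4 and DUSP5 remove the activating phosphates from MAP kinases, Sprouty and SPRED proteins act upstream at the level of RAS and RAF, and ETV4 and ETV5 are PEA3-family ETS factors that carry the signal to further genes. In the intestinal epithelium the same pathway drives proliferation downstream of EGF receptor ligands.

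Gene counts per library ran from 8269406 to 11110814. The 8 epithelial markers examined, among them EPCAM, VIL1 and CDH17, were at 10 CPM or more in every group (CPM is the count per 1000000 gene counts after TMM scaling). CD3E, which defines T cells, and COL3A1, a fibroblast collagen, were at 0 in all 4 groups, and PTPRC, the pan-leukocyte marker, in 3 of the 4. The summed level of the 6 immune markers was 312 to 366 CPM in SW948 with DMSO and 205 to 232 CPM with itraconazole, against 28.6 to 33.2 and 23.9 to 63.6 CPM in HT55. In SW948 with DMSO this sum was mostly LYZ, at 318 ± 25.9 CPM, beside CD68 at 20.5 ± 3.65 CPM (SD, n = 4). With itraconazole LYZ was lower there, at 109.5 ± 11.8 CPM, and CD68 was higher, at 110.3 ± 1.48 CPM (SD, n = 4). The summed level of the 6 fibroblast markers was 2.54 to 4.68 CPM in SW948 with DMSO and 9.94 to 12.1 CPM with itraconazole. In HT55 it was 1.41 to 2.13 and 3.33 to 3.97 CPM. COL1A1, another collagen of that list, was most of the sum in SW948. It stood there at 3.16 ± 0.81 CPM with DMSO and 10.1 ± 1.03 CPM with itraconazole (SD, n = 4). The part of these markers in the results was not tested. The share of the mean treatment shift of its line, over all genes, that each treated library had moved was 61.8% in HT55 itraconazole replicate 3, where the other 3 HT55 libraries lay between 90% and 110%, and 83.8% in SW948 itraconazole replicate 1, where the others lay between 96.3% and 108%. Values without these libraries are given for DUSP5, for PHLDA1 in HT55, and where their omission changed a call.

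The regulatory sequence in front of 3 of the genes is shown because their transcripts responded differently: PHLDA1 rose in SW948, while DUSP6 and SPRY2 fell there. Each stretch holds the 250 bases before a RefSeq transcription start, on GRCh38.p14 and the minus strand. PHLDA1 is at chr12:76031777-76032026, DUSP6 at chr12:89352502-89352751 and the first of 3 SPRY2 windows at chr13:80341127-80341376. Capitals mark CCGGAA, a core that ETS factors bind, on either strand, so that TTCCGG is the same match read from the opposite strand.
PHLDA1: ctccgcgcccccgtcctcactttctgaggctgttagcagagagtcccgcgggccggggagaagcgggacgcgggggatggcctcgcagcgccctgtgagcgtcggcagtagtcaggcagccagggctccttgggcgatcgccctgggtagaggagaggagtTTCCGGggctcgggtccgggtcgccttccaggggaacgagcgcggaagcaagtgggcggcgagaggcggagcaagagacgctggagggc
DUSP6: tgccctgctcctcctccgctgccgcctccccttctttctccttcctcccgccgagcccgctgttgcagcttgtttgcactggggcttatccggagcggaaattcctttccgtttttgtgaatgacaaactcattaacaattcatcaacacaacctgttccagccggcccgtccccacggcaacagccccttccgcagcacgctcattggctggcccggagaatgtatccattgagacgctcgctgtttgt
SPRY2: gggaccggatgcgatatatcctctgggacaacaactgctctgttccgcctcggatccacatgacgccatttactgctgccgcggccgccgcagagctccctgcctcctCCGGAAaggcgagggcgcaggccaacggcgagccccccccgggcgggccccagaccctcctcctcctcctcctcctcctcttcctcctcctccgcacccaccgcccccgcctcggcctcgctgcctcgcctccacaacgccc
The match began at position -89 from the start in PHLDA1 and at -142 in SPRY2, and these letters were not present in the DUSP6 window. Other forms that ETS factors bind were not searched, so the DUSP6 window is not read as free of ETS sites. RefSeq windows of 250 bases before to 50 after a start were matched for 6 of the 10 genes (DUSP6, SPRY2, SPRY4, SPRED1, SPRED2 and PHLDA1), 9 windows in all. CCGGAA was found in 17.3% of the 35116 windows of all genes. TGANTCA, the AP-1 motif, was in 7.71% of all windows and occurred at 2 places in the second SPRED2 window. TGACGTCA, the cAMP response element, was in 1.85% of all windows and the CArG box in 1.29%, and neither was found in a window of these genes.

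**Figure D1:**
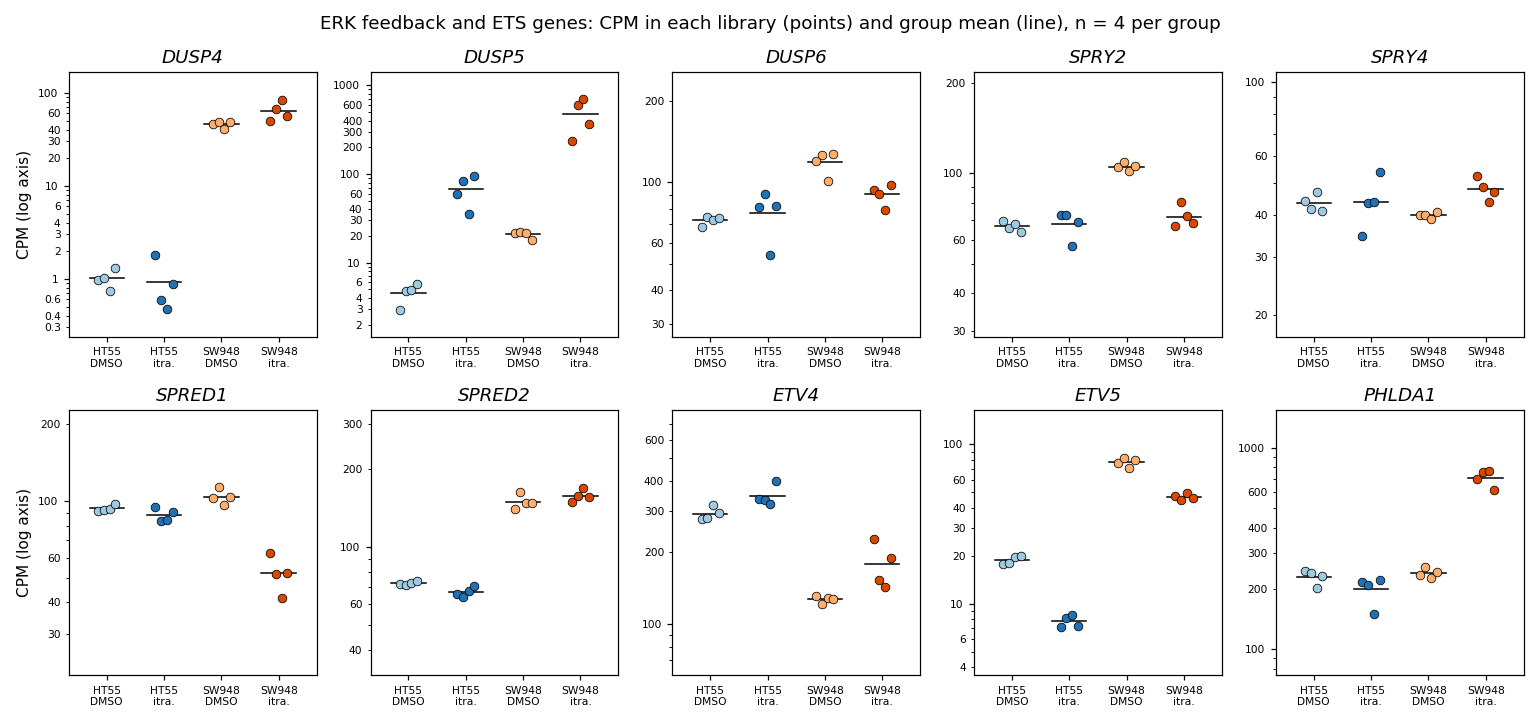
CPM of the 10 genes in each of the 16 libraries, on a log axis, with 1 panel per gene and 4 points per group; the line is the group mean. DUSP5 is the gene whose treated libraries stood far above the controls in both lines (34.98 CPM or more against at most 5.69 in HT55, and 237 or more against at most 22.2 in SW948).

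DUSP5, a nuclear phosphatase specific for ERK, was the member with the largest response in both lines. Its level in the 4 HT55 DMSO libraries was 2.92, 4.83, 4.88 and 5.69 CPM, and in the 4 HT55 itraconazole libraries 59.9, 83.1, 34.98 and 95.1 CPM. In SW948 the DMSO libraries stood at 21.6, 22.2, 21.5 and 17.9 CPM and the itraconazole libraries at 237, 596, 709.7 and 371 CPM. The groups did not overlap in either line, and within each line the lowest treated value came from the library that had moved least over all genes.

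The HT55 mean of DUSP5 was 4.58 ± 1.17 CPM with DMSO and 68.3 ± 26.6 CPM with itraconazole (SD, n = 4), and the fitted log2 fold change was 3.89 with an SE of 0.32. In SW948 it rose from 20.8 ± 1.99 to 478.5 ± 214 CPM, a log2 fold change of 4.49 ± 0.29. By fitted fold change it ranked 12 from the top of 12133 tested genes in HT55 and 34 of 12505 in SW948. Without HT55 itraconazole replicate 3 the HT55 value was 4.12 ± 0.18, and without SW948 itraconazole replicate 1 the SW948 value was 4.73 ± 0.17. Over the 4 groups the order was HT55 DMSO, SW948 DMSO, HT55 itraconazole and SW948 itraconazole, and the libraries of neighbouring groups in this order did not overlap. DUSP5 lies at chr10:112257665-112271291 on the plus strand (ENSG00000138166). This and all gene positions below are on GRCh37, and all 10 genes are annotated as protein coding. As these are bulk samples, a change in the number of cells that express a gene and a change in RNA per cell cannot be told apart, here or below.

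DUSP6, the cytoplasmic ERK phosphatase (ENSG00000139318, chr12:89741012-89746278, minus strand), behaved differently. In HT55 the DMSO libraries held 68.6, 74.3, 72.6 and 74.2 CPM and the itraconazole libraries 81.4, 90.8, 53.99 and 81.9 CPM. Of the treated HT55 libraries 3 were above every control and replicate 3 was below every control. The fitted log2 fold change in HT55 was 0.08 ± 0.13 and did not pass the threshold (an adjusted p under 0.05 over all tested genes, edgeR's quasi-likelihood test), whereas without replicate 3 it was 0.24 ± 0.063 and passed. Its direction turned with plain library totals, at -0.0927, and without itraconazole replicate 2, at -0.00792. In SW948 the DMSO libraries held 120.0, 126, 101 and 128 CPM and the itraconazole libraries 94.0, 90.5, 78.8 and 98.0 CPM. Every treated SW948 library was below every control, with a log2 fold change of -0.43 ± 0.087.

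DUSP4, a nuclear phosphatase of ERK and JNK (ENSG00000120875, chr8:29190581-29208201, minus strand), was far higher in SW948 than in HT55. The HT55 libraries held between 5 and 15 reads each, 37 in all with DMSO and 32 in all with itraconazole, so DUSP4 did not pass the filter for low counts in HT55 and no response was estimated there. In SW948 its level was 46.0, 48.2, 40.4 and 48.2 CPM with DMSO and 50.1, 66.6, 83.8 and 56.8 CPM with itraconazole. The treated values lay above the controls, with a log2 fold change of 0.46 ± 0.13. With plain library totals in place of TMM scaling the value was 0.12 and did not pass.

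These unequal responses changed the make-up of the phosphatase transcripts. Per kilobase of exon, DUSP6 made up 90.7% ± 1.86 of the summed level of DUSP4, DUSP5 and DUSP6 in HT55 with DMSO and 43.7% ± 6.19 with itraconazole (SD, n = 4). The share of DUSP5 went from 8.65% ± 1.84 to 55.99% ± 6.27. In SW948 the DUSP6 share went from 67.9% ± 2.32 to 12.2% ± 5.81 and that of DUSP5 from 18.3% ± 2.47 to 83.5% ± 6.70, while DUSP4 went from 13.9% ± 0.19 to 4.25% ± 0.93. In neither line did the DUSP5 shares of the treated and the DMSO libraries overlap. A share within a library does not depend on how libraries are scaled to each other.

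**Figure D2:**
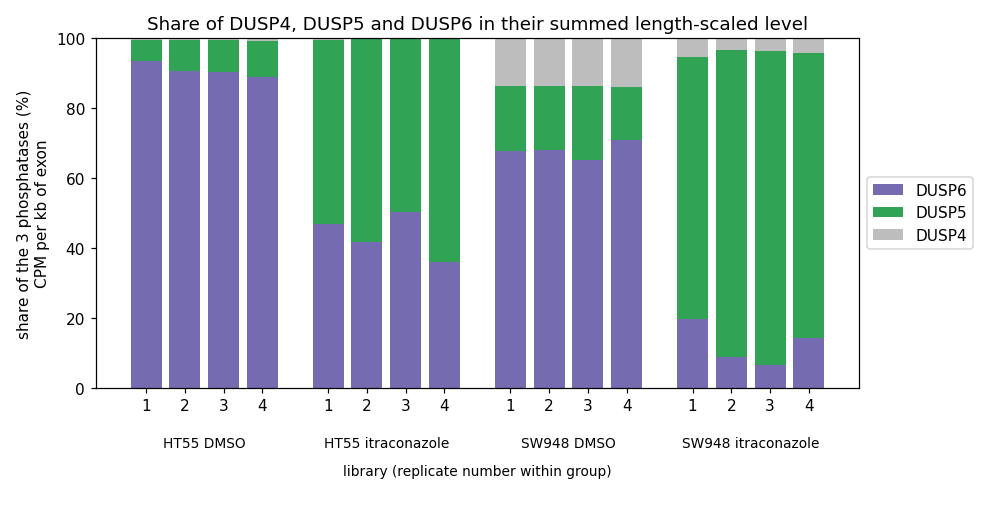
Share of DUSP4, DUSP5 and DUSP6 in their summed CPM per kilobase of exon, in percent, with 1 bar per library and the 4 groups side by side. DUSP6 is the main part of every DMSO bar (65.1% or more), and DUSP5 makes up 49.5% to 63.7% of the treated HT55 bars and 74.96% to 89.8% of the treated SW948 bars.

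Among the inhibitors that act on RAS and RAF, SPRED1, which brings the RAS inactivator neurofibromin to the membrane, had the largest response, in SW948. Its level there was 102, 114, 96.5 and 104 CPM with DMSO and 62.6, 51.6, 41.4 and 52.3 CPM with itraconazole. The groups were well apart, and SPRED1 fell by 1.03 ± 0.10 on the log2 scale. In HT55 its libraries held 91.5, 92.3, 92.7 and 97.6 CPM with DMSO and 94.8, 83.9, 84.3 and 90.5 CPM with itraconazole. These overlapped, with a log2 fold change of -0.09 ± 0.061 that did not pass the threshold, though it passed at -0.25 with plain library totals. SPRED1 (ENSG00000166068) lies at chr15:38545037-38649450 on the plus strand.

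SPRED2, the close relative of SPRED1 (ENSG00000198369, chr2:65537985-65659771, minus strand), did not pass in either line with TMM scaling, and with plain library totals it was lower and passed in both. It held 71.8, 71.5, 72.8 and 73.7 CPM in HT55 with DMSO and 65.97, 63.9, 67.4 and 70.9 CPM with itraconazole. The treated HT55 values all lay just below the controls, at a log2 fold change of -0.12 ± 0.059, or -0.28 with plain library totals. In SW948 the DMSO libraries held 140.1, 164, 147.5 and 148 CPM and the itraconazole libraries 149.7, 157.5, 169.5 and 157 CPM, which overlap, at a log2 fold change of 0.05 ± 0.067 that turned to -0.287 and passed with plain library totals.

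SPRY2, a Sprouty inhibitor of receptor signalling (ENSG00000136158, chr13:80910111-80915261, minus strand), fell in SW948. Its DMSO libraries held 105, 109, 102 and 105.5 CPM and its itraconazole libraries 67.0, 80.0, 71.95 and 68.4 CPM. These groups did not overlap, and the log2 fold change was -0.59 ± 0.069. In HT55 it held 69.7, 65.7, 67.7 and 64.0 CPM with DMSO and 72.7, 72.7, 57.2 and 69.2 CPM with itraconazole, which overlapped at a log2 fold change of 0.02 ± 0.083, or -0.15 with plain library totals.

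SPRY4, a second Sprouty inhibitor (ENSG00000187678, chr5:141689992-141706020, minus strand), moved little. In SW948 it held 40.0, 40.0, 38.9 and 40.8 CPM with DMSO and 52.4, 48.5, 43.7 and 46.97 CPM with itraconazole. The treated values were higher, at a log2 fold change of 0.23 ± 0.073 that passed with TMM scaling and was -0.10 with plain library totals. In HT55 the libraries held 44.1, 41.7, 46.8 and 41.0 CPM with DMSO and 34.5, 43.4, 43.8 and 53.6 CPM with itraconazole, which overlapped at a log2 fold change of 0.01 ± 0.12. Its direction in HT55 changed with the scaling, the filter and single libraries.

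The pair of PEA3-family ETS factors moved in opposite directions in both lines. ETV5 (ENSG00000244405, chr3:185764103-185828107, minus strand) held 17.6, 18.1, 19.5 and 19.8 CPM in HT55 with DMSO and 7.12, 8.14, 8.46 and 7.20 CPM with itraconazole. In SW948 it held 75.8, 81.9, 71.0 and 79.4 CPM with DMSO and 47.3, 44.98, 49.3 and 46.2 CPM with itraconazole. The treated libraries were below the controls in both lines and close to one another. ETV5 fell by 1.28 ± 0.11 on the log2 scale in HT55 and by 0.75 ± 0.070 in SW948, and it kept its direction and its call under every alternative run.

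ETV4 (ENSG00000175832, chr17:41605212-41656988, minus strand) held 277, 280.2, 317 and 294 CPM in HT55 with DMSO and 337, 333, 319.7 and 399 CPM with itraconazole. In SW948 it held 131, 121, 129 and 128 CPM with DMSO and 227, 153, 143 and 189.7 CPM with itraconazole. The treated libraries were above the controls in both lines, by a narrow margin in HT55. The log2 fold change was 0.25 ± 0.080 in HT55 and 0.46 ± 0.11 in SW948, and with plain library totals the values were 0.08 and 0.14, neither of which passed. The HT55 call was also lost in 3 of the 8 fits that left out a library (without DMSO replicate 1, DMSO replicate 2 or itraconazole replicate 4), with values of 0.23, 0.24 and 0.18.

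Some exonic bases of these genes are shared with neighbours. ETV4 overlaps 68 exonic bases of DHX8 on the opposite strand, ETV5 overlaps 164 of DGKG on its own strand, and PHLDA1 overlaps 553 of the antisense gene PHLDA1-AS1. Whether counting used strand is not given in the sources used here, so reads from these stretches cannot be assigned with certainty. Over all libraries DHX8 held 14684 counts, DGKG 117 and PHLDA1-AS1 27.

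PHLDA1, a pleckstrin homology-like domain protein whose transcript follows ERK activity (ENSG00000139289, chr12:76419227-76425556, minus strand), was the member whose response differed most between the lines. In SW948 its DMSO libraries held 234, 256, 227 and 241 CPM and its itraconazole libraries 700.5, 760.1, 769 and 619 CPM. The treated SW948 libraries were far above the controls, with means of 712 ± 69.4 against 239 ± 12.4 CPM (SD, n = 4) and a log2 fold change of 1.54 ± 0.080. In HT55 it held 246, 238, 202 and 230.3 CPM with DMSO and 216, 209, 149 and 220.5 CPM with itraconazole. The HT55 groups overlapped, at a log2 fold change of -0.21 ± 0.12 that did not pass, and of -0.08 ± 0.068 without itraconazole replicate 3. With the replicate numbers as a block the HT55 value was -0.23 and passed, as it did with plain library totals, at -0.39.

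**Figure D3:**
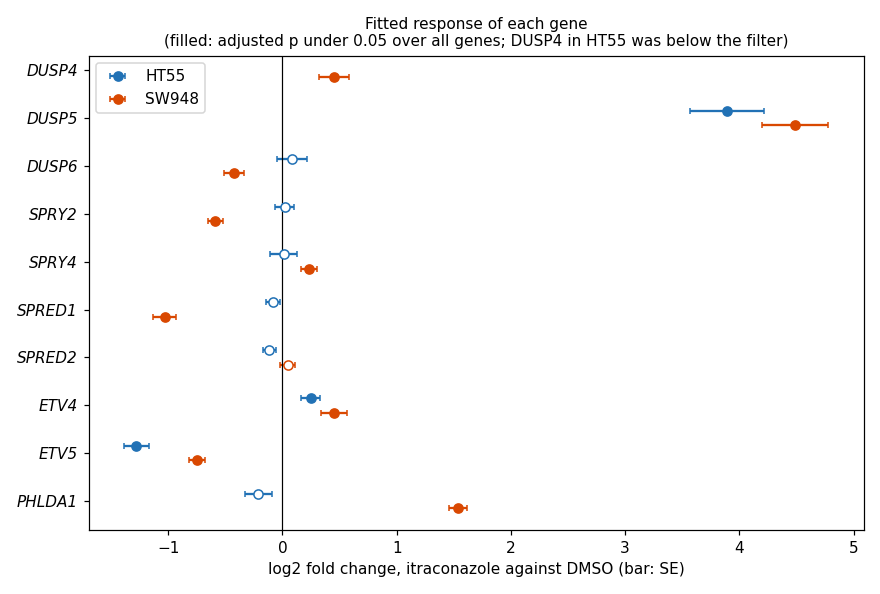
Fitted log2 fold change of itraconazole against DMSO for each gene (x axis) in HT55 and SW948, with bars for the SE; filled points passed an adjusted p under 0.05 over all tested genes. DUSP5 stands apart at 3.89 and 4.49, ETV5 is negative in both lines, and PHLDA1 (1.54) and SPRED1 (-1.03) passed in SW948 and not in HT55.

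Counted together, 3 of the 9 members tested in HT55 were called, 2 higher (DUSP5, ETV4) and 1 lower (ETV5), where 54.0% of all 12133 tested genes were called. In SW948 9 of 10 were called, 5 higher (DUSP4, DUSP5, SPRY4, ETV4, PHLDA1) and 4 lower (DUSP6, SPRY2, SPRED1, ETV5), where 80.2% of all 12505 tested genes were called. The treatment responses were known when the genes were picked, so nothing is read from these counts. The median log2 fold change of the members was 0.01 in HT55 and 0.14 in SW948, beside -0.02 and -0.03 over all tested genes. With plain library totals the medians over all genes were -0.18 and -0.35, and the share of calls that were higher went from 51.0% to 32.6% in HT55 and from 48.5% to 31.5% in SW948. The mean summed CPM of the 9 members other than DUSP5 was 889 ± 5.48 and 899 ± 86.4 in HT55, and 1007 ± 44.9 and 1422 ± 58.8 in SW948, with DMSO and itraconazole (SD, n = 4). Among these 9, PHLDA1 alone went from 239 ± 12.4 to 712 ± 69.4 CPM in SW948, and 4 were called lower. The higher sum in SW948 is therefore not a common rise of the members.

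The same transcripts also differed between the lines without itraconazole. Earlier results of these libraries were known when the genes were picked, and the DMSO libraries are the controls of the treatment responses. The adjusted p-values (edgeR's quasi-likelihood test) are therefore given as descriptions and are not read as tests of the members. With DMSO, 8 of 10 differed between SW948 and HT55, 7 higher in SW948 and 1 lower, where 84.2% of all 12820 tested genes were called, so the share is close to that of genes at large. DUSP4 had the largest difference, a log2 difference of 5.50 ± 0.14 (adjusted p = 1.59e-21), or 45.1-fold. DUSP5 was 2.19 ± 0.13 higher in SW948 on the log2 scale (adjusted p = 9.64e-14), and ETV5 was 2.04 ± 0.066 higher (adjusted p = 2.98e-19). SPRED2 was higher by 1.05 ± 0.049 (adjusted p = 5.38e-16), DUSP6 by 0.72 ± 0.061 (adjusted p = 7.87e-11) and SPRY2 by 0.66 ± 0.046 (adjusted p = 1.83e-12). For SPRED1 the difference was 0.16 ± 0.050 (adjusted p = 0.00524) although the libraries overlapped. ETV4 ran the other way and was lower in SW948, at -1.19 ± 0.046 (adjusted p = 1.42e-17). SPRY4 (-0.12 ± 0.059, adjusted p = 0.0662) and PHLDA1 (0.07 ± 0.051, adjusted p = 0.228) did not pass. With plain library totals SPRY4 turned to 0.08, and PHLDA1 was 0.26 and passed (adjusted p = 6.65e-05). Without HT55 DMSO replicate 2 or replicate 4 the SPRY4 difference passed, at -0.14 and -0.15.

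With itraconazole, 7 of 10 differed between the lines, 5 higher in SW948 and 2 lower, where 76.6% of all 12353 tested genes were called. This contrast shares its treated libraries with the responses above, so its values and adjusted p-values are descriptions too. DUSP4 was 6.13 ± 0.29 higher in SW948 on the log2 scale (adjusted p = 3.45e-09), DUSP5 was 2.82 ± 0.35 higher (adjusted p = 1.19e-05) and ETV5 was 2.60 ± 0.11 higher (adjusted p = 1.97e-09). PHLDA1, which passed between the DMSO groups with plain library totals but not with TMM scaling, was 1.85 ± 0.13 higher in SW948 (adjusted p = 8.14e-08), and SPRED1 was 0.76 ± 0.12 lower, a log2 difference of -0.76 (adjusted p = 7.49e-05). SPRED2 was higher by 1.24 ± 0.080 (adjusted p = 4.34e-08) and ETV4 remained lower, at -0.95 ± 0.14 (adjusted p = 4.94e-05). DUSP6 (0.24 ± 0.14, adjusted p = 0.134), SPRY2 (0.09 ± 0.098, adjusted p = 0.431) and SPRY4 (0.13 ± 0.13, adjusted p = 0.352) did not pass. The DUSP6 difference passed without HT55 itraconazole replicate 2, at 0.33, and with the replicate block, at 0.26.

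The difference between the lines in the response itself passed the threshold for 5 of 10 members, where 53.9% of all 13249 tested genes were called. It is built from the treatment responses, which were known when the genes were picked, so nothing is read from this count. The response was larger in SW948 for PHLDA1 by 1.78 ± 0.15 on the log2 scale. It was more negative in SW948 for SPRED1 by -0.92 ± 0.13, for SPRY2 by -0.58 ± 0.11 and for DUSP6 by -0.48 ± 0.17. For ETV5 it was 0.56 ± 0.12, so the fall was smaller in SW948. The difference for DUSP5 was 0.63 ± 0.51 and did not pass, while with no filter on low counts it was 0.62 ± 0.16 and passed. It was 0.64 ± 0.46 for DUSP4, 0.25 ± 0.14 for SPRY4, 0.24 ± 0.15 for ETV4 and 0.19 ± 0.089 for SPRED2, and these did not pass either. With the DESeq2 Wald test the SPRED2 difference was 0.22 and passed, and with plain library totals it was -0.00612. Single libraries also decided some of these: the DUSP4 difference passed at 1.14 without HT55 itraconazole replicate 1, SPRY4 at 0.35 without HT55 itraconazole replicate 4, and SPRED2 at 0.23 without SW948 DMSO replicate 2 or 0.22 without SW948 itraconazole replicate 1.

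Scaled to exon length, so that genes can be compared with each other, ETV4 was the most abundant of the 10 in HT55, at 83.0 ± 5.10 CPM per kb with DMSO and 98.8 ± 10.1 with itraconazole. PHLDA1 came second in both HT55 groups, at 38.8 ± 3.20 and 33.6 ± 5.65 CPM per kb. In HT55 DUSP5 moved from rank 9 of 10, at 1.81 ± 0.46 CPM per kb, to rank 3, at 26.9 ± 10.5, where its spread covered the levels of SPRY2 (21.1 ± 2.28) and DUSP6 (19.96 ± 4.14). In SW948 with DMSO the leading genes were PHLDA1 (40.5 ± 2.09 CPM per kb), ETV4 (36.2 ± 1.20), SPRY2 (32.8 ± 0.90) and DUSP6 (30.7 ± 3.14), and DUSP5 was at rank 8, at 8.21 ± 0.78. With itraconazole DUSP5 came first there, at 189 ± 84.3 CPM per kb, ahead of PHLDA1 at 120.4 ± 11.7, a gap within the spread of DUSP5. SPRED1 moved from rank 6 to rank 10 in SW948, from 13.4 ± 0.92 to 6.71 ± 1.12 CPM per kb.

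The spread between libraries, as the coefficient of variation of CPM, was larger with itraconazole than with DMSO for all 10 members in HT55 and for 7 of 10 in SW948. In HT55 these include DUSP4, with only 5 to 15 reads per library, and the share over all genes is not given here. A larger spread was not particular to these genes. Over genes at large, the chi-square per degree of freedom between libraries of a group measures spread against sampling noise. With itraconazole it ran from 4.88 to 40.5 in HT55 and 3.76 to 21.5 in SW948. With DMSO it ran from 1.43 to 2.34 and 2.45 to 4.85. The coefficient of variation of DUSP6 was 3.70% in HT55 with DMSO and 20.7% with itraconazole, and that of SPRY4 was 5.99% and 17.8%. ETV5 varied least among the treated SW948 groups, at 3.94%, and DUSP5 most, at 44.7%. Counting error is small beside this for genes with many reads, as DUSP5 held between 2371 and 5583 reads in the treated SW948 libraries.

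The rest of the pathway was followed in 9 lists of 151 genes in all. Of the 120 tested in HT55, 53 rose and 21 fell, which is 61.7% called, with a median log2 fold change of 0.26. In SW948 80 of 122 rose and 26 fell, which is 86.9% called, with a median of 0.50. Beside these, the medians over all tested genes were -0.02 and -0.03, and the shares called were those given above for all genes.

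At the top of the pathway, the receptor ligands (of the EGF and FGF families, with HGF and IGF2) included, of 9 tested in HT55, 1 gene that rose and 6 that fell, and of 7 in SW948, 4 that rose and 1 that fell. In HT55 EGF itself rose from 2.23 ± 0.80 to 19.3 ± 6.10 CPM (mean ± SD of 4 libraries, as below). FGF19, an intestinal FGF, fell from 30.4 ± 2.47 to 3.93 ± 1.38 CPM in HT55 and rose from 1.80 ± 0.25 to 10.02 ± 0.57 CPM in SW948. BTC, the EGF-family ligand betacellulin, fell from 25.7 ± 1.58 to 0.58 ± 0.23 CPM in SW948. Of the 16 receptors and adaptors tested, 10 were higher and 2 lower in HT55, and 10 higher and 4 lower in SW948. EGFR, the EGF receptor, rose from 112 ± 10.8 to 252 ± 36.3 CPM in HT55, where FGFR3 had the lowest value of the called receptors, a log2 fold change of -0.33 ± 0.095 (not past the threshold without DMSO replicate 3, at -0.26). In SW948 the adaptor GAB2 rose from 38.3 ± 0.36 to 207 ± 34.2 CPM and MET, the receptor of hepatocyte growth factor, fell from 543 ± 15.6 to 325 ± 20.2 CPM.

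In the kinase relay itself 7 of the 17 genes tested in HT55 rose and 3 fell, against 12 and 2 of 16 in SW948. BRAF had the highest log2 fold change of the called genes in HT55, at 0.63 ± 0.15, and HRAS in SW948, at 1.23 ± 0.17. Among RAS GTPase-activating proteins and other brakes 6 of 18 rose and 3 fell in HT55, against 10 and 6 of 17 in SW948. NF1, which encodes neurofibromin, rose in HT55 by 0.997 ± 0.15 on the log2 scale, and LRIG1, an inhibitor of EGF receptors, fell from 39.6 ± 3.73 to 22.2 ± 5.95 CPM there. In SW948 RASAL1 rose by 1.75 ± 0.14 and RASAL2 had a value of -1.98 ± 0.13.

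The MAP kinase phosphatases other than the 3 members numbered 6 tested genes, of which HT55 had 1 higher and 1 lower, while 5 were higher and the sixth did not pass in SW948. DUSP16 rose from 166 ± 3.25 to 238 ± 36.5 CPM in HT55. DUSP10, which acts on p38 and JNK, went from 1.49 ± 0.25 to 0.72 ± 0.24 CPM in HT55 and from 1.88 ± 0.57 to 8.63 ± 1.85 CPM in SW948. Of the kinases that ERK activates and the ternary complex factors, 10 were tested, with 3 higher and 3 lower in HT55 and 4 higher and 4 lower in SW948. The highest and lowest in HT55 were both ribosomal S6 kinases, RPS6KA1 at a log2 fold change of 0.89 ± 0.069 and RPS6KA2 at -0.75 ± 0.078. In SW948 MKNK2 rose from 317 ± 12.4 to 981.5 ± 217 CPM and RPS6KA4 fell from 56.4 ± 5.82 to 15.95 ± 0.98 CPM.

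Immediate early genes, the fast transcriptional targets of the pathway, included 8 that rose and 1 that fell of 15 tested in HT55, with 6 that did not pass, against 13 and 1 of 17 in SW948. Of all tested genes 27.5% rose in HT55 and 38.9% in SW948. The highest in both lines was NR4A1, a nuclear receptor, which rose by 2.86 ± 0.35 in HT55 and 3.96 ± 0.17 in SW948 on the log2 scale. The gene that fell in both was EGR1, at -0.45 ± 0.090 in HT55 and -0.61 ± 0.22 in SW948. The EGR1 call in SW948 was lost without DMSO replicate 1 (-0.54), without DMSO replicate 2 (-0.58) and without itraconazole replicate 4 (-0.48). Among the other ETS factors 7 of 11 rose in HT55 and the rest did not pass, against 9 higher and 4 lower of 14 in SW948. ELF3, an epithelial ETS factor, rose from 222 ± 3.80 to 380.3 ± 26.9 CPM in HT55. In SW948 ETV7 rose from 0.91 ± 0.11 to 4.54 ± 0.30 CPM and ETV2 fell from 1.65 ± 0.18 to 0.93 ± 0.17 CPM.

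Of genes listed as further ERK outputs, 10 of 18 rose and 2 fell in HT55, against 13 and 4 of 19 in SW948. The list was written from general knowledge, and whether each of its genes, PHLDA3 among them, follows ERK in these cells was not tested. PHLDA3, a relative of PHLDA1, rose in HT55 from 0.22 ± 0.23 to 5.84 ± 1.10 CPM, with 8 reads in all in the DMSO libraries. VGF fell there from 2.96 ± 0.76 to 1.42 ± 0.50 CPM. In SW948 PLAU, which encodes urokinase, rose from 0.92 ± 0.068 to 9.98 ± 1.63 CPM and MMP1, a collagenase, fell from 2.07 ± 0.82 to 0.49 ± 0.093 CPM.

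**Figure D4:**
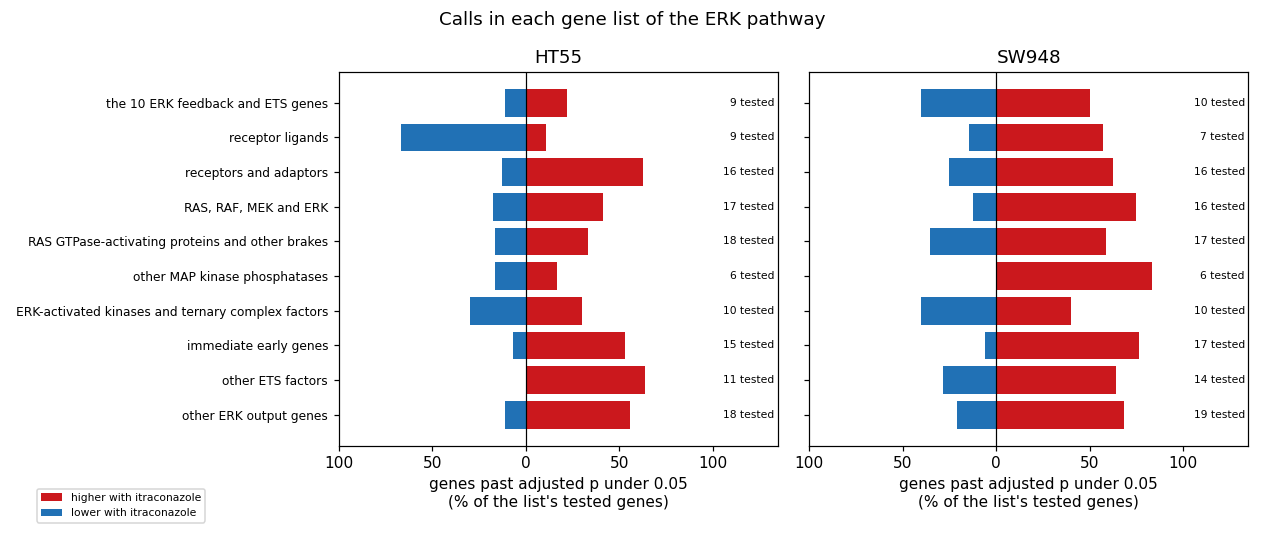
Share of the tested genes of each list that were called higher (right, red) or lower (left, blue) with itraconazole, in percent, in HT55 and SW948. The phosphatases other than the members show 5 of 6 higher in SW948 and 1 of 6 in HT55, and receptor ligands show 6 of 9 lower in HT55.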

How the data were processed

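The authors made TruSeq libraries, sequenced single-end reads of 50 bp and deposited, for each library, raw counts per Ensembl gene on hg19 (GRCh37). The submitters' processing notes name TopHat, HTSeq and DESeq. The annotation release and whether counting used strand are not given in the sources used here. Reads with several alignments were not counted in genes, so genes with near-identical copies lose reads. The 5 totals of reads outside genes were left out of library sizes: reads with several alignments were 22.0% to 27.9% of all counts, reads outside genes 3.79% to 4.94% and ambiguous reads 1.23% to 1.48%. Depth was 8269406 to 11110814 gene counts per library. No pair of replicates matched within sampling noise. The study's methods call its experiments biological quadruplicates.

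Each contrast was fitted by edgeR 4.0.16 (quasi-likelihood test, TMM, filterByExpr) in R 4.3.3 on its own 8 libraries, and the interaction of line and treatment on all 16. Benjamini-Hochberg adjustment ran over all tested genes, and genes under 0.05 were called. CPM used TMM factors over all libraries, and CPM per kb the union of exons in GENCODE on GRCh37. TMM factors averaged 1.03 and 0.911 in HT55 and 1.18 and 0.913 in SW948, with DMSO and itraconazole. The script was tested on simulated data. An outlier was called by Dixon's ratio.

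The members and gene lists were chosen with earlier results of these data known. All 10 members were named, and from each list the called gene with the highest and the lowest log2 fold change in each line, with a group mean of at least 1 CPM; 1 of these is not reported here. Alternatives were DESeq2 1.42.0 size factors and its Wald test, plain library totals, 2 other filters, a replicate block, omission of the 20 most counted and the mitochondrial genes, 1 fit on 16 libraries, and leaving out each library. Reads carried no molecular identifiers.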

Additional observations from a re-analysis of the deposited data

Results flagged for a closer look

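Dixon's ratio, which sets 1 library's distance from its nearest neighbour against the whole range of its group, was computed for the 10 members and for the gene counts in every group, 44 sets of 4 in all, and 2 stood out, where chance gives about 2.2. DUSP5 in SW948 DMSO replicate 4 was at 17.9 CPM, where the other 3 lay between 21.5 and 22.2 CPM (ratio 0.839). PHLDA1 in HT55 itraconazole replicate 3 was at 149 CPM, where the others lay between 209 and 220.5 CPM (ratio 0.836).

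The response to itraconazole differed between the lines, by the interaction term over all 16 libraries, for 5 members. The responses were known when the members were picked, so these values are descriptions. The differences, SW948 minus HT55 on the log2 scale, were 1.78 ± 0.15 for PHLDA1, 0.56 ± 0.12 for ETV5, -0.48 ± 0.17 for DUSP6, -0.58 ± 0.11 for SPRY2 and -0.92 ± 0.13 for SPRED1 (SE).

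It also differed for 18 of the 29 other pathway genes that the naming rule picked. Each of these was named as an extreme in at least 1 line, which favours a difference between the lines, so the values are given without p-values. Among ligands the difference was 5.38 ± 0.24 for FGF19 and -4.24 ± 0.39 for BTC. Among receptors and adaptors it was 1.84 ± 0.33 for GAB2, 0.36 ± 0.14 for FGFR3, -0.87 ± 0.13 for EGFR and -0.88 ± 0.087 for MET. In the relay and its brakes it was 1.39 ± 0.24 for HRAS, 1.36 ± 0.30 for RASAL1, -0.89 ± 0.16 for NF1 and -1.54 ± 0.18 for RASAL2. DUSP10 had a difference of 3.25 ± 0.41. Among the kinases that ERK activates it was 1.04 ± 0.23 for MKNK2, 0.45 ± 0.12 for RPS6KA2, -0.33 ± 0.11 for RPS6KA1 and -1.20 ± 0.19 for RPS6KA4. The difference was 1.13 ± 0.42 for NR4A1, an immediate early gene, and 1.81 ± 0.33 for ETV7, from the other ETS factors. For PHLDA3 it was -2.55 ± 0.51, against 8 reads in all in HT55 with DMSO.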

How the results depend on the processing

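Of 623 gene fold changes under settings other than leaving out a library, 599 kept their direction and their side of the threshold, and of 744 that left out 1 library, 723 did. Plain library totals moved most: 5 members were called in HT55 in place of 3, DUSP5 higher and SPRED1, SPRED2, ETV5 and PHLDA1 lower. They turned the HT55 values of DUSP6 to -0.0927, of SPRY2 to -0.151 and of SPRY4 to -0.155, the SW948 values of SPRY4 to -0.0957 and of SPRED2 to -0.287, the difference between DMSO lines of SPRY4 to 0.0753, and the interaction of SPRED2 to -0.00612. SPRY4 in HT55 was -0.00166 with no filter, -0.000627 with at least 10 counts in every library and -0.00381 with the replicate block. Leaving out single libraries gave -0.00792 to 0.235 for DUSP6, -0.0146 to 0.107 for SPRY2 and -0.0959 to 0.11 for SPRY4 in HT55. In HT55 the count of all called genes ran from 5560 to 7911 in those fits, the highest without itraconazole replicate 3. In the 1 fit on all 16 libraries ETV4 in HT55 did not pass (0.25), nor did EGR1 there, and with the DESeq2 Wald test EGR1 in SW948 did not. Same-numbered libraries correlated between -0.025 and 0.12 in HT55 and between -0.0035 and 0.10 in SW948. Libraries of other numbers averaged -0.00886 and -0.0151, and replicate 3 was the highest in both lines (0.116 and 0.104). The main fits did not use the numbers as pairs, and the labels do not say what they share. The replicate block gave 6300 called genes in HT55 and 9973 in SW948. For DUSP4 in HT55, 5 to 15 reads per library set the precision. The causes were not tested.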
